A study of Homo sapiens with 6 samples.

Results

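The miR-320 family comprises the mature miRNAs named miR-320a to miR-320e, and its 6 annotated products, all rows of the deposited count table with those names in either arm, were followed in azacitidine-resistant and azacitidine-sensitive K562 cells. The table holds 2656 miRNAs, of which 768 had enough counts to be tested, all 6 family products included. K562 is a human erythroleukaemia line, labelled myeloblast by the submitters. Azacitidine is a cytidine analogue that lowers DNA methylation. The 3 resistant libraries, labelled biological replicates 1 to 3, came from K562 cells grown in rising azacitidine concentrations over several months. The 3 sensitive libraries, labelled the same way, came from K562 cells without that selection, and both forms were cultured in RPMI medium with fetal bovine serum, penicillin and streptomycin. The labels do not say whether the drug was present at harvest, what the letters NT in the library names stand for, or whether the resistant replicates came from separate selections, so p-values measure the spread between these libraries.

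Most miRNA precursors are cut out of a long transcript in the nucleus by Drosha and trimmed in the cytoplasm by Dicer. The precursor of miR-320a, as worked out in mouse and human cells, is instead transcribed directly as a short hairpin with a 5′ cap, leaves the nucleus through exportin 1 and needs Dicer but not Drosha. The capped 5p strand is poorly loaded into Argonaute, so the 3p strand is the main product. In blood cells miR-320 is known for repressing the transferrin receptor CD71, the iron uptake receptor of red cell precursors, and the hairpin of miR-320a lies beside the promoter of POLR3D, a subunit of RNA polymerase III.

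Sequences of 4 of the products were available from RefSeq (GRCh38.p14), and they are shown because their near identity bears on how reads can be assigned. Capitals mark the seed, bases 2 to 8, by which a miRNA pairs with its targets.
miR-320b: aAAAGCUGgguugagagggcaa
miR-320c: aAAAGCUGgguugagagggu
miR-320d: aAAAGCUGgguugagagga
miR-320e: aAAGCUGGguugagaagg
miR-320b, miR-320c and miR-320d had the same seed, and miR-320e, whose annotated 5′ end starts 1 base later, had a shifted one. With positions counted from 1 at the 5′ end of miR-320b, miR-320c differed by C20U, miR-320d by G19A and miR-320e, aligned with its first base on base 2, by G17A. The first 19 bases of miR-320b and miR-320c were identical, as were the first 18 bases of miR-320b, miR-320c and miR-320d, and a run of 15 bases was shared by all 4. How the authors counted reads that fit several of these is not given in the sources used here, so the split of counts between members is uncertain.

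The 6 products come from 8 hairpin genes on 6 chromosomes in RefSeq (GRCh38.p14). miR-320b is made from MIR320B1 on chromosome 1 (116671746 to 116671817, outside annotated genes) and from MIR320B2 on the same chromosome (224257040 to 224257110), in an intron of NVL and on its strand. miR-320c is made from MIR320C1 and MIR320C2 on chromosome 18 (21683518 to 21683589 and 24321675 to 24321746), in introns of ABHD3 and OSBPL1A and on the opposite strand from each. miR-320d is made from MIR320D1 on chromosome 13 (40727816 to 40727887) and MIR320D2 on chromosome X (140926160 to 140926231), both outside other genes. MIR320E, the source of miR-320e, lies on chromosome 19 (46709282 to 46709354) in an intron of PRKD2, on its strand. Host genes are from GENCODE 29. Counts of miR-320b, miR-320c and miR-320d cannot be traced to 1 of their 2 loci. The hairpins of 3 loci are shown with the mature product in capitals, since MIR320B1 and MIR320B2 carry the same product in differing flanks.
MIR320B1: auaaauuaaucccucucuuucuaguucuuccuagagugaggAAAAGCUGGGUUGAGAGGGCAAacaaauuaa
MIR320B2: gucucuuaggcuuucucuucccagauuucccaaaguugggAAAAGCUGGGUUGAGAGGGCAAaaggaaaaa
MIR320E: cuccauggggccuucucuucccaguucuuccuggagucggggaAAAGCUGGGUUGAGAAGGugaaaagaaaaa
In all 7 hairpins with a sequence the annotated mature product was in the 3′ arm, with its first base at position 41 to 44 and 9 to 12 bases after its last.

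The 6 libraries held 3291500 (resistant replicate 3) to 12563945 counts (sensitive replicate 1), with 1120 to 1383 miRNAs detected. The blood miRNAs fixed as a check of the line (miR-451a, both arms of miR-144, miR-486-5p, both arms of miR-142 and miR-223-3p) were detected in all 6 libraries, while miR-133a-3p, miR-124-3p and miR-205-5p, of muscle, neurons and epithelium, had 0 to 2 counts in any library, miR-1-3p of muscle had 0 to 35 and miR-122-5p of liver 12 to 76. In bulk RNA, fewer cells with a miRNA and less of it per cell cannot be told apart. Resistant replicate 3 stood apart. Over log2 CPM of the tested miRNAs, Pearson's r with its 2 fellow replicates was 0.882 and 0.871, while those 2 reached 0.996 with one another. miR-92a-3p held 58.6% of its counts, against 20.2% and 17.5% in resistant replicates 1 and 2 and 10.5% to 14.3% in sensitive libraries, and a list of miRNA names whose sequences match pieces of tRNA, rRNA and the like held 5.14%, against 1.07% and 1.10% in the other 2 and 1.12% to 1.73% in sensitive libraries. The part of these shares in the results below was not tested. Levels, fold changes and counts of called miRNAs are therefore given with and without resistant replicate 3.

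The family as a whole was more abundant in each resistant library than in any sensitive one. Its summed level was 1648, 1239 and 7635 CPM (counts relative to library sizes scaled by trimmed mean of M values, TMM) in resistant replicates 1 to 3, against 858, 955 and 714 CPM in sensitive replicates 1 to 3. All 3 resistant libraries lay above the sensitive range, and resistant replicate 3 was the highest. The means were 3507 ± 3580 CPM in resistant and 842 ± 121 CPM in sensitive libraries (SD, n = 3 each), a ratio of 4.16, and 1.71 without resistant replicate 3. As a share of the library, which uses no scaling factor, the family held 0.195%, 0.154% and 0.590% of the counts in resistant replicates 1 to 3, against 0.0821%, 0.0917% and 0.0682% in sensitive replicates 1 to 3, a ratio of means of 3.88, and 2.17 without resistant replicate 3. That share depends on how much of a library miR-92a-3p took: of the counts outside miR-92a-3p the family held 0.244%, 0.187% and 1.43% in resistant replicates 1 to 3, against 0.0950%, 0.102% and 0.0795% in sensitive replicates 1 to 3, a ratio of means of 6.71, and 2.34 without resistant replicate 3. The exact 95% binomial intervals of the shares of all counts, which cover counting error only, ran from 0.152% to 0.157% for the lowest resistant library and from 0.0898% to 0.0936% for the highest sensitive one. No p-value is given for a sum over chosen members.

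**Figure D1:**
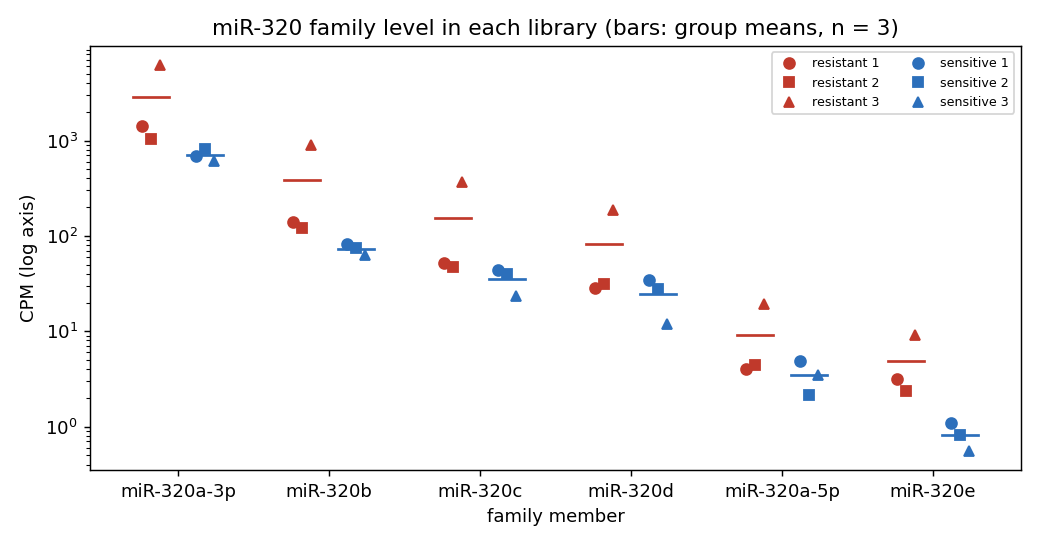
CPM of each family product (log axis) in resistant (red, left) and sensitive (blue, right) libraries, with a marker shape per replicate and a bar at each group mean (n = 3). The triangle of resistant replicate 3 is the highest point for all 6 products, and the other 2 resistant libraries lie above the sensitive ones for miR-320a-3p, miR-320b, miR-320c and miR-320e.

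All 6 products had positive log2 fold changes, from 1.33 for miR-320a-5p to 2.41 for miR-320e, as had 355 of all 768 tested miRNAs. The family's median was 2.07, against -0.11 over all tested. With all 6 libraries, 0 of the 6 passed edgeR's quasi-likelihood test at an adjusted p under 0.05, where 4.17% of all tested miRNAs were called in either direction and 2.08% were higher in resistant cells. DESeq2, which gave no p-value for miR-320b and miR-320c, called 2 of the other 4 higher, where 13.1% of the 750 miRNAs with an adjusted p were higher. limma-voom called 0 of the 6, where 2.73% of all tested miRNAs were higher. An unadjusted edgeR p under 0.05 was found for 4 of the 6, against 26.7% of all tested miRNAs. Without resistant replicate 3 the fold changes were smaller, and 3 of the 6 rose, where 13.7% of 822 tested miRNAs were called higher. In that fit the family's median was 0.69, against 0.04 over all tested. The CPM of resistant libraries lay wholly above those of sensitive libraries for 4 of the 6 products, as for 18.9% of all tested miRNAs. By share of library totals this held for all 6, against 25.7% of all tested.

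miR-320a-3p was the most abundant member. Its hairpin gene MIR320A, the source of both miR-320a arms, is found at 22244966 to 22245037 on chromosome 8 (GRCh38.p14, minus strand), 67 bp from POLR3D on the opposite strand. miR-320a-3p was the 72nd, 82nd and 18th most abundant miRNA of resistant replicates 1 to 3, against the 109th, 105th and 114th of sensitive replicates 1 to 3. It had 13963, 13666 and 15694 counts in resistant replicates 1 to 3, which were 1421, 1031 and 6165 CPM. Sensitive replicates 1 to 3 had 8326, 7929 and 3301 counts, which were 693, 810 and 611 CPM. The groups did not overlap. The log2 fold change was 2.03 (SE 0.70, edgeR adjusted p = 0.134), a fitted 4.08-fold difference that did not pass. Without resistant replicate 3, miR-320a-3p rose 1.80-fold (edgeR adjusted p = 0.0117, log2 fold change 0.85, SE 0.22).

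miR-320b, with the same seed as miR-320c and miR-320d and made from 2 loci on chromosome 1, was next in abundance. It stood at 139, 122 and 889 CPM in resistant replicates 1 to 3, against 81.3, 74.9 and 63.3 CPM in sensitive replicates 1 to 3. As for miR-320a-3p, all 3 resistant libraries were above every sensitive one. The log2 fold change was 2.39 (SE 0.80, edgeR adjusted p = 0.134) with all libraries. miR-320b rose 1.85-fold without resistant replicate 3 (edgeR adjusted p = 0.0125, log2 fold change 0.89, SE 0.23).

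miR-320e, the product with the shifted seed, was the scarcest of the 6. Its counts were 31, 31 and 23 in resistant replicates 1 to 3, or 3.16, 2.34 and 9.03 CPM. They were 13, 8 and 3 in sensitive replicates 1 to 3, or 1.08, 0.817 and 0.555 CPM. The groups did not overlap, but the counts are few: the exact 95% Poisson interval of the 3 counts in sensitive replicate 3 ran from 0.619 to 8.77 counts. The log2 fold change was 2.41 (SE 0.66, edgeR adjusted p = 0.0898). Without resistant replicate 3, miR-320e rose 3.25-fold (edgeR adjusted p = 0.0116, log2 fold change 1.70, SE 0.43). Scaled by library totals, it passed with all 6 libraries (log2 fold change 2.43, edgeR adjusted p = 0.0434), where 3.52% of all tested miRNAs were called higher. Of 16 alternative fits with miR-320e, 5 called it, these among them, and 11 did not.

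miR-320c and miR-320d, which share their first 18 bases with miR-320b, separated the groups less well. miR-320c had 51.7, 47.5 and 365 CPM in resistant replicates 1 to 3, against 43.4, 39.4 and 23.7 CPM in sensitive replicates 1 to 3. Its groups did not overlap, but resistant replicate 2 and sensitive replicate 1 were close. The log2 fold change of miR-320c was 2.12 (SE 0.84, edgeR adjusted p = 0.166), and 0.53 without resistant replicate 3 (SE 0.28, edgeR adjusted p = 0.191). miR-320d had 28.7, 31.5 and 188 CPM in resistant replicates 1 to 3, against 34.6, 27.8 and 12.03 CPM in sensitive replicates 1 to 3. Here sensitive replicate 1 was above resistant replicates 1 and 2, and the groups overlapped. The log2 fold change of miR-320d was 1.73 (SE 0.82, edgeR adjusted p = 0.218), and 0.32 without resistant replicate 3 (SE 0.36, edgeR adjusted p = 0.568). Sensitive replicate 3 was the lowest of the 6 libraries for both.

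miR-320a-5p, the other strand of the miR-320a hairpin, was rare in every library. It had 39, 58 and 49 counts in resistant replicates 1 to 3 and 58, 21 and 19 counts in sensitive replicates 1 to 3. These were 3.97, 4.38 and 19.2 CPM in resistant replicates 1 to 3, against 4.83, 2.14 and 3.52 CPM in sensitive replicates 1 to 3, so that the groups overlapped. The log2 fold change was 1.33 (SE 0.72, edgeR adjusted p = 0.260), and 0.30 without resistant replicate 3 (edgeR adjusted p = 0.603). There were 2.79, 4.24 and 3.12 reads of miR-320a-5p per 1000 reads of miR-320a-3p in resistant replicates 1 to 3, against 6.97, 2.65 and 5.76 in sensitive replicates 1 to 3. The strand ratio of the groups overlapped, with means of 3.39 ± 0.761 in resistant and 5.12 ± 2.23 in sensitive libraries (SD, n = 3 each; two-sided exact permutation p = 0.4). With 3 libraries against 3, this test cannot give a p below 0.1. Without resistant replicate 3 the mean strand ratio was 3.52 in resistant libraries, still within the sensitive range.

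**Figure D2:**
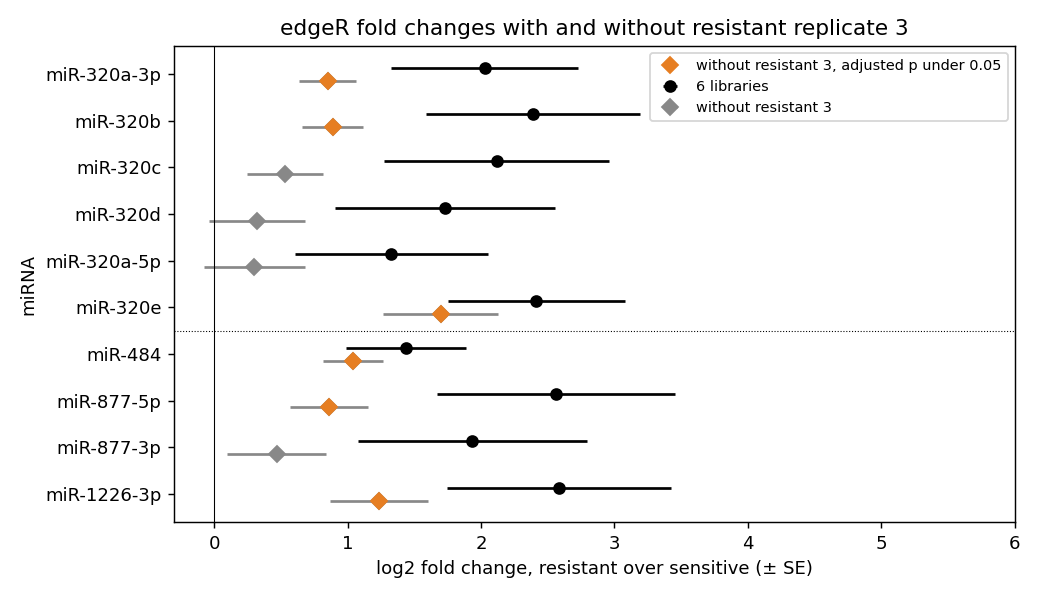
edgeR log2 fold changes, resistant over sensitive, with SE bars, for the 6 family products (above the dotted line) and the 4 tested members of the list of other Drosha-independent miRNAs (below it). Black circles use 6 libraries and none passed. Diamonds leave out resistant replicate 3, and the orange ones passed an adjusted p of 0.05. They sit closer to 0 for all 10 miRNAs.

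The make-up of the family within a library does not depend on scaling between libraries, and with all 6 libraries the groups overlapped for the share of each of the 6 products. miR-320a, both arms together, made up 86.5%, 83.6% and 81.0% of the family's counts in resistant replicates 1 to 3, against 81.3%, 85.04% and 86.1% in sensitive replicates 1 to 3. The ranges nearly coincided, with means of 83.7 ± 2.74% in resistant and 84.1 ± 2.50% in sensitive libraries (SD, n = 3 each; two-sided exact permutation p = 0.9). In resistant replicate 3, where the family's share of the library was 3.03 and 3.83 times that in resistant replicates 1 and 2, the share of miR-320b was 11.6%, against 8.46% and 9.87% there and 7.84% to 9.47% in sensitive libraries. miR-320c made up 3.14% to 4.78% of the family in resistant and 3.32% to 5.06% in sensitive libraries. miR-320d made up 1.74% to 2.55% in resistant and 1.68% to 4.03% in sensitive libraries. The share of miR-320e was 0.191%, 0.189% and 0.118% in resistant replicates 1 to 3, against 0.126%, 0.0856% and 0.0778% in sensitive replicates 1 to 3, with overlap between resistant replicate 3 and sensitive replicate 1 (two-sided exact permutation p = 0.2). The ratio of the mean shares, resistant over sensitive and without resistant replicate 3, was 1.97 for miR-320e, whose groups then did not overlap, and 1.01 for miR-320a-3p, 1.05 for miR-320b, 0.836 for miR-320c, 0.745 for miR-320d and 0.696 for miR-320a-5p. The 6 shares of single products and the share of miR-320a gave 7 values in all. With 6 libraries their lowest exact permutation p was 0.2, and each had a Benjamini-Hochberg adjusted p of at least 0.875. As this test cannot give a p below 0.1 here, no share could have passed 0.05, and the result cannot show an unchanged make-up. The 7 shares also depend on one another.

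**Figure D3:**
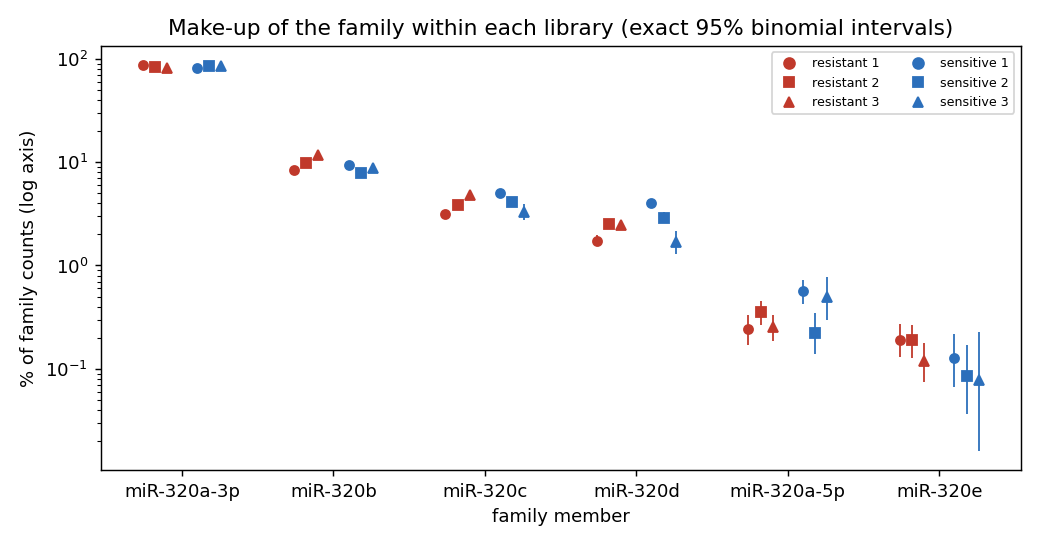
Percentage of the family's counts held by each product (log axis) in resistant (red, left) and sensitive (blue, right) libraries, with exact 95% binomial intervals that cover counting error only. miR-320a-3p held 80.7% to 86.2% in every library, and the groups overlap for all 6 products.

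Over the 6 libraries, Pearson's r of log2 CPM ran from 0.854 to 0.993 for the 15 pairs of products. It ran from 0.139 to 0.999 over the 5 libraries without resistant replicate 3. By mean level the order was miR-320a-3p, miR-320b, miR-320c, miR-320d, miR-320a-5p and miR-320e in both groups, with miR-320c above miR-320d in each of the 6 libraries. Neighbours whose ranges of CPM overlapped were miR-320b and miR-320c, miR-320c and miR-320d, and miR-320a-5p and miR-320e in resistant libraries, and miR-320c and miR-320d in sensitive libraries. Values are reads per mature miRNA and include ligation preferences, so the order describes these libraries.

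Resistant replicate 3 differed from the other resistant libraries along with GC content, and miR-320b to miR-320e lie near the middle of that range. The miR-320a products, which held most of the family's counts, had no sequence here and so no GC content. The higher the GC content of a mature sequence, the higher its log2 deviation in that library from the mean of the other 2 resistant libraries, across 677 tested miRNAs with a sequence (Spearman's rho 0.714, miRNAs of a library not being independent). The mature products miR-320b, miR-320c and miR-320e have 50% GC and miR-320d 47.4%, against a median of 47.8% over those 677. The deviation of the 6 products ran from 1.57 for miR-320e to 2.87 for miR-320c on the log2 scale, against a median of -0.31 over all tested. With an offset for GC content in every library, the log2 fold changes of miR-320b, miR-320c, miR-320d and miR-320e were 2.44, 2.16, 2.14 and 2.38 (edgeR adjusted p = 0.0869, 0.127, 0.153 and 0.0548). Without the offset these log2 fold changes were 2.39, 2.12, 1.73 and 2.41. The products in that fit lie near the median GC content, and the miR-320a products were not in it. The part of GC content in the family's fold changes was not tested.

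miR-4429, from chromosome 2, was the only miRNA of the table outside the family whose RefSeq mature sequence had the seed of one of the 4 products above, and is shown for comparison with the family above.
miR-4429: aAAAGCUGggcugagaggcg
It shared its first 10 bases with miR-320b and differed at U11C, G19C and C20G over its length. It had 5, 10 and 4 counts in resistant replicates 1 to 3 and 6, 3 and 1 counts in sensitive replicates 1 to 3, too few to be tested.

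Besides miR-320a, miRNAs that bypass Drosha were examined as a list of 24 mature products, called other Drosha-independent here. They were miR-484, whose precursor is also capped, and mirtrons, hairpins that the spliceosome cuts out as short introns. Whether miR-320b to miR-320e bypass Drosha was not tested. All 24 had a row, 9 had no count in any library and 4 could be tested. All 4 had positive log2 fold changes, as had 355 of the 768 tested miRNAs (median 2.25, against -0.11 over all tested). With 6 libraries 0 passed in edgeR, and 3 had an unadjusted p under 0.05 (26.7% of all tested miRNAs). DESeq2 called 3 higher (13.1% of all) and limma-voom 0 (2.73%). Without resistant replicate 3, 3 of the 4 rose, against 13.7% of all tested. All 4 have a GC content above the median of 47.8% over the 677 tested miRNAs with a sequence. Across those 677 the log2 fold change with 6 libraries rose with GC content (Spearman's rho 0.565). The part of GC content in the positive fold changes of the 4 was not tested.

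miR-484 was of an abundance near that of miR-320a-3p, and its sequence, from chromosome 16 in an exon of NDE1, has no more than 3 bases in a row in common with miR-320b.
miR-484: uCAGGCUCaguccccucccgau
It had 1598, 1330 and 3063 CPM in resistant replicates 1 to 3, against 683, 618 and 909 CPM in sensitive replicates 1 to 3, and the groups did not overlap. With 6 libraries its log2 fold change was 1.44 (SE 0.45), which did not pass (edgeR adjusted p = 0.130). With resistant replicate 3 left out, miR-484 rose 2.06-fold (edgeR adjusted p = 0.00458, log2 fold change 1.04, SE 0.22). There were 97.0, 107 and 40.1 reads of miR-484 per 100 reads of the miR-320 family in resistant replicates 1 to 3, against 79.6, 64.7 and 127 in sensitive replicates 1 to 3. Resistant replicate 3 was the lowest of the 6, and the groups overlapped (two-sided exact permutation p = 0.8). The ratio of the group means was 0.900, and 1.13 without resistant replicate 3. Pearson's r between miR-484 and the family's summed level (log2 CPM) was 0.903 over 6 libraries and 0.770 over the 5 without resistant replicate 3.

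The mirtrons that could be tested were far rarer. miR-877-5p, from a mirtron of ABCF1, had 13.9, 11.2 and 105 CPM in resistant replicates 1 to 3, against 5.99, 6.74 and 9.07 CPM in sensitive replicates 1 to 3. It did not pass with 6 libraries (edgeR adjusted p = 0.135, log2 fold change 2.56, SE 0.89) and rose 1.82-fold without resistant replicate 3 (edgeR adjusted p = 0.0438). miR-1226-3p, from a mirtron of DHX30, had 4.48, 6.87 and 35.7 CPM in resistant replicates 1 to 3, against 2.91, 1.74 and 2.96 CPM in sensitive replicates 1 to 3, which did not pass with 6 libraries either (edgeR adjusted p = 0.134, log2 fold change 2.59, SE 0.84). It rose 2.36-fold without resistant replicate 3 (edgeR adjusted p = 0.0244). miR-877-3p, the opposite arm of miR-877, had overlapping groups and did not pass in either fit (log2 fold changes 1.94 and 0.47, edgeR adjusted p = 0.192 and 0.390). The 4 mature sequences have 59.1% to 65.0% GC.

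**Figure D4:**
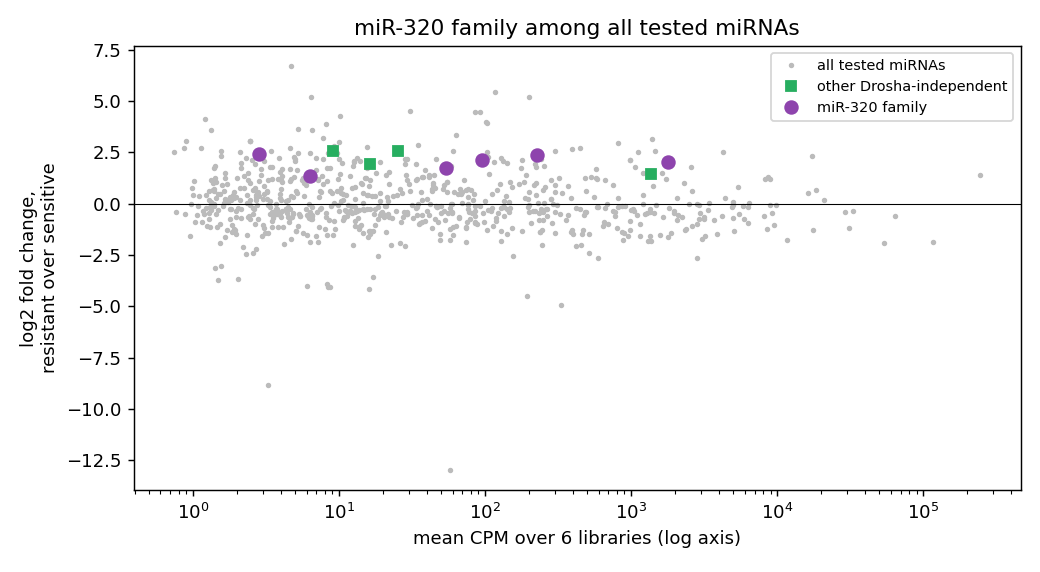
edgeR log2 fold change, resistant over sensitive, against mean CPM (log axis) for the 768 tested miRNAs with 6 libraries. The 6 miR-320 products (purple) and the 4 other Drosha-independent miRNAs (green) all lie above 0, between 1.33 and 2.59, within the spread of the grey points. The fitted value of the lowest point comes from a miRNA with no counts in resistant libraries and is no measure of its fold.

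Of 465 miRNAs outside the family with a mean of at least 10 CPM, those whose log2 CPM over the 6 libraries was most like the family's summed level were miR-486-5p (r = 0.997), miR-2110 (0.997), miR-324-3p (0.996), miR-1306-5p (0.994) and miR-328-3p (0.994). miR-486-5p, an erythroid miRNA, had 13140, 9582 and 63305 CPM in resistant replicates 1 to 3, against 6215, 6077 and 4744 CPM in sensitive replicates 1 to 3. The other blood miRNAs of the check did not follow it with 6 libraries: 6 of the 7 had a log2 fold change below 0, where 413 of all 768 tested did. Among them were the erythroid miR-451a (-0.94), miR-144-3p (-0.41) and miR-144-5p (-0.0016). In that fit 0 of the 7 passed edgeR's test, where 4.17% of all tested miRNAs did. Without resistant replicate 3, 3 of the 7 were above 0 (miR-486-5p 1.05, miR-144-5p 0.43 and miR-144-3p 0.09) and 4 below, where 429 of all 822 tested were above 0. There miR-486-5p was called higher and miR-223-3p lower (edgeR adjusted p = 0.00218 and 0.00733), where 28.1% of all tested were called. Most like the family's summed level without resistant replicate 3 were miR-941 (r = 0.997), miR-576-5p (0.995), miR-2110 (0.992), miR-486-5p (0.989) and let-7f-5p (0.974). miR-2110 and miR-486-5p were on both lists. miR-576-5p, of 31.8% GC, had r = -0.85 over all 6 libraries, and it was lowest in resistant replicate 3. let-7f-5p, also of 31.8% GC, had r = -0.39 over all 6 libraries. The other miRNAs on the 2 lists with a sequence had 63.6% to 73.9% GC and were highest in resistant replicate 3. The points of these correlations are libraries shared by all miRNAs, and no test was made on them.

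**Figure D5:**
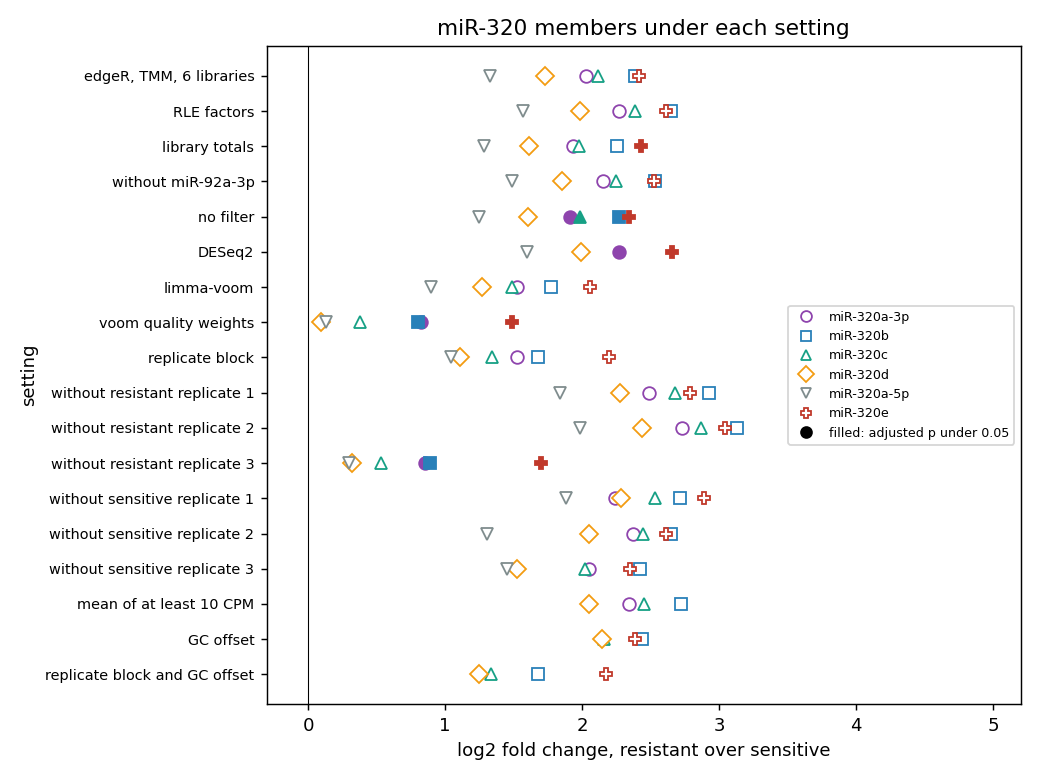
log2 fold change of each product, resistant over sensitive, under each setting (rows), filled where the adjusted p was under 0.05. All points lie above 0. DESeq2 gave no p-value for miR-320b and miR-320c, which have no point in its row. miR-320a-5p and miR-320d were called under no setting, and quality weights and the fit without resistant replicate 3 gave the values nearest to 0.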

How the data were processed

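Small RNA libraries were made with a NEBNext kit and sequenced on a NovaSeq instrument, per the labels' protocols. The authors deposited raw read counts per mature miRNA, with GRCh38 as the build named in the submitters' processing notes. Aligner, counting program, miRBase release and the treatment of reads that match several miRNAs: not given in the sources used here. Counts carry no molecular identifiers.

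Counts were fitted with edgeR 4.0.16 (R 4.3.3) over all miRNAs that passed filterByExpr (minimum count 10, minimum total 15), with TMM factors, a quasi-likelihood F test of resistant against sensitive libraries without covariates, and Benjamini-Hochberg adjustment over all tested miRNAs. SE is approximate, the size of a log2 fold change over the square root of its F. Alternatives used DESeq2 1.42.0, limma 3.58.1, other scalings and filters, a GC offset (loess, span 0.75) and single libraries left out. The fit was tested on simulated counts with the same dispersion for every miRNA and no outlying library, so that test does not cover data with such a library. Replicates of a group differed by more than sampling noise (chi-square per degree of freedom 124 to 4015). Correlations used log2(CPM + 0.5).

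Named were all family members, miR-484 and the other 2 most abundant tested members of the other Drosha-independent list, miRNAs with a member's seed, and the 5 most correlated with the family's sum over 6 and over 5 libraries. miR-1226-3p, the last tested member of that list, was named after its values were seen. The host genes of mirtrons are general knowledge. The members and lists were chosen with earlier results of these data known. Sequences and loci are from RefSeq (GRCh38.p14).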

Additional observations from a re-analysis of the deposited data

How the results depend on the processing

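All 6 products had positive log2 fold changes under every one of the 94 combinations of product and alternative that gave a p-value, and 13 of these passed the threshold. The number of the 6 products called was 1 with library totals, 4 with no filter, 2 of 4 with DESeq2 and 3 with library quality weights, against 0 with TMM factors, and 0 to 3 when single libraries were left out, the 3 being without resistant replicate 3. Of all tested miRNAs, 3.52%, 6.63%, 13.1%, 19.3% and 2.08% were called higher in these 5 fits. The cause was not tested. Of the other Drosha-independent miRNAs, 3 of 15 were called with no filter, 3 of 4 with DESeq2 and 3 of 4 with quality weights, and 0 to 3 with single libraries left out. Over all miRNAs, 32 were called with TMM factors, 21 with RLE factors or without miR-92a-3p, 162 with no filter, 13 with a minimum mean of 10 CPM, 149 with DESeq2 (of 750 with an adjusted p), 323 with quality weights, 70 with the GC offset, and 4 to 231 with single libraries left out (231 without resistant replicate 3, and 7, 5, 4 and 5 without resistant replicate 1 and sensitive replicates 1, 2 and 3). Library totals gave 27 higher and 16 lower calls, against 16 and 16 with TMM factors. The median log2 fold change of all tested miRNAs was -0.11 with TMM factors, -0.01 with RLE factors and 0.09 with library totals, and the family's median lay 2.18, 2.33 and 1.87 above it, 1.68 with limma-voom, 1.59 with the replicate block and 0.62 with quality weights. The difference between group means of the log2 summed level, which is not the log of the 4.16-fold ratio of means, was 1.58 with TMM factors, 1.68 to 1.70 under other scalings, 2.07 for the 3p products fitted as 1 row, and 0.83 to 2.29 with single libraries left out. The difference in the share of miR-320a was -0.45 percentage points and ran from -1.87 to 0.88 with single libraries left out. Deviations of same-numbered libraries from their group means had r = -0.07 to 0.27. With 3 libraries a group this cannot decide whether the numbers pair them, and the labels do not say. With the replicate number as a block 0 products and 23 of all miRNAs were called, and with the GC offset added 0 and 30. The GC fits left out the miR-320a products and a minimum mean of 10 CPM left out miR-320a-5p and miR-320e. By log2 fold change, miR-320e was above miR-320b in 10 of the 17 fits with both. Counts were few for miR-320e, miR-320a-5p and miR-4429.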
